A study of Mus musculus with 9 samples.

Results

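The genes described here are those that the copper-cystine complex lowered in MC38 cells. A gene was a member when its mean over the 3 Ctrl libraries was at least 50 normalised counts and the log2 ratio of its Cu-Cys mean to its Ctrl mean, with 1 added to each, was at most -0.9. A normalised count is the read count estimated for a gene, divided by a size factor of its library. Of the 16509 genes measured, 10394 reached a Ctrl mean of 50 and 147 passed both cutoffs. Collagen, laminin and integrin chains and numbered Zfp genes were left out by their symbols, which removed Col1a1, Col3a1, Col5a1, Col5a3, Lamb3, Itgb3 and Zfp423 and left 140 members. The 140 genes were lower with Cu-Cys because they were chosen to be, so their Cu-Cys values are given as a description and carry no test. What the rule did not use is how they stood after Cadict, although that comparison shares the Ctrl libraries with the rule.

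MC38 is a mouse colon carcinoma line, and RNA from 3 libraries each of Ctrl, Cu-Cys and Cadict cells was sequenced. Ctrl cells are labelled as treated with DMSO, whereas the study's text names PBS. Cu-Cys is a coordination complex of copper and cystine, the oxidised dimer of the amino acid cysteine. Cadict is a nanodrug that carries the same copper and cystine together with glucose oxidase (GOx), an enzyme that consumes glucose, and GE11, a peptide that binds the epidermal growth factor receptor, so it holds the components of Cu-Cys and others. The doses and times used for the sequenced cells are not given in the sources used here. All groups are the same cell line, and the labels do not say whether the replicates of a group came from separate cultures, so that p-values measure the spread between these libraries only.

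Copper-loaded cells can die by cuproptosis, in which copper binds lipoylated enzymes of the mitochondria, and cystine-loaded cells that lack glucose can die by disulfidptosis, in which disulfide bonds form between proteins of the actin cytoskeleton. Many of the genes lowered here belong to programmes that tumour cells run outside those pathways. Interferon-stimulated genes encode sensors of viral RNA, GTPases and parts of the machinery that loads peptides on MHC class I. Chemokines and acute-phase proteins are induced by NF-kappa-B, a transcription factor of inflammation, and proteoglycans, glycoproteins and crosslinking enzymes build the extracellular matrix.

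Most of the genes chosen as lower with Cu-Cys were also called lower with Cadict. With Cadict, 104 of the 140 members were called lower than in Ctrl, 1 was called higher and 35 were not called. A call required that edgeR's quasi-likelihood test gave an adjusted p no larger than 0.001 and that the level changed by a factor of 2 or more. The 104 were 74.3% of the members, beside 27.1% of all 11949 tested genes and 27.8% of the tested genes with a Ctrl mean of at least 50. In the other direction, 20.7% of the tested genes were called higher, beside Lcn2 among the members. The median log2 fold change of the members, Cadict minus Ctrl, was -2.06, within a range of -6.42 to 1.65, and that of all tested genes was -0.13. In 119 members all Cadict libraries lay below all Ctrl libraries, in 12 the groups overlapped, and in 9 all Cadict libraries lay above. Overlap was not counted over all tested genes, so whether 119 is unusual was not tested. With only an adjusted p no larger than 0.05 asked, Cadict lowered 5627 and raised 4857 of the 11949 tested genes. Of the members it lowered 122 and raised 6. By the call with the fold limit, 1.47% of the tested genes were lower with Cu-Cys than with Ctrl, and that contrast is the source of the rule.

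Together the members held 0.344% ± 0.00358 (SD, n = 3) of the read counts in Ctrl, 0.138% ± 0.00210 in Cu-Cys and 0.0645% ± 0.00319 in Cadict. The median member had 6.30 TPM (transcript abundance corrected for length and library size) in Ctrl, 2.37 TPM in Cu-Cys and 0.575 TPM in Cadict, and 5 members reached 100 TPM in Ctrl. These 5 were Ccl2 at 1731 TPM, Slurp1 at 175 TPM, Ccl7 at 157 TPM, Cxcl1 at 149 TPM and Prelp at 100.4 TPM. The number of members with a mean under 1 TPM was 2 in Ctrl, 23 in Cu-Cys and 85 in Cadict. How many tested genes lay under 1 TPM was not counted. These Cadict levels include a drop that the typical gene shared. On log2(TPM + 1), half-way through the tested genes Cadict stood at -1.13 against Ctrl, and half-way through the members at -1.99. With scaling by library totals these middle values were -1.08 and -3.01. At the edge of the rule stood Dgka and Scn2a just inside, with log2 ratios of -0.909 and -0.903. Loxl2, Plekha7 and Carns1 stood just outside, at -0.898, -0.897 and -0.897.

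**Figure D1:**
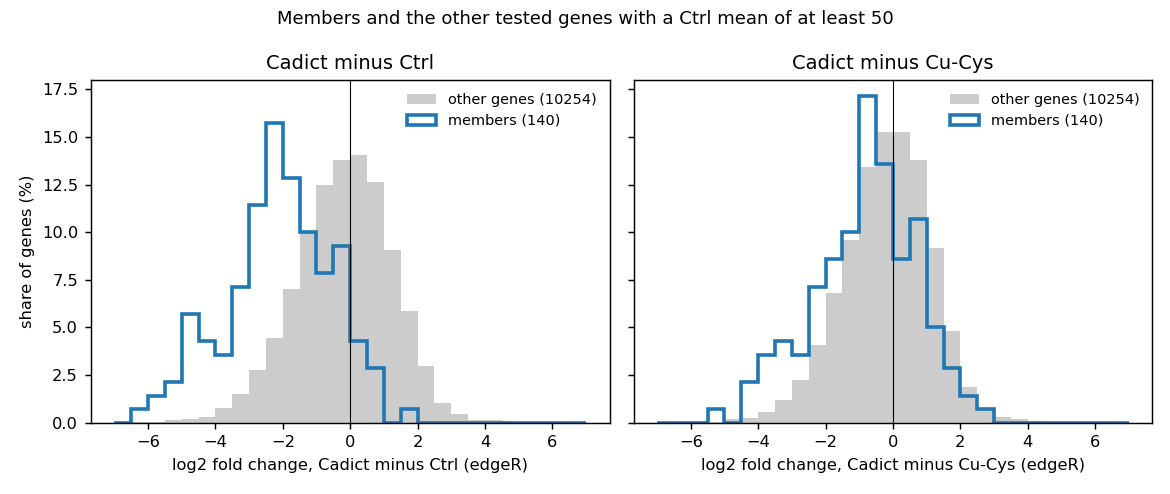
Distribution of the log2 fold change of Cadict against Ctrl (left) and against Cu-Cys (right) for the 140 members (blue outline) and the 10254 other tested genes with a Ctrl mean of at least 50 (grey), as a share of each set (y axis, percent) in bins of 0.5. The members' median lies at -2.06 in the left panel and at -0.73 in the right panel, and values beyond 7 would be drawn in the end bins.

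Depth was even, at 17905771 to 18293056 counts per library. The scaling factors were not, at 1.26 to 1.27 for Ctrl, 1.21 for Cu-Cys and 0.640 to 0.665 for Cadict (TMM), so changes with Cadict are relative to the typical gene of those libraries. With scaling by library totals the median of all tested genes moved by -0.95 against Ctrl and by -0.88 against Cu-Cys. The cells were also checked against their label. Of 12 colon epithelial markers in the table, 2 reached 1 TPM in Ctrl, with Epcam, Cdx1 and Fabp2 at 0 in every Ctrl library, while 12 of 18 fibroblast and mural cell markers did, Vim among them at 2865 to 2982 TPM and Thy1 and Lum at 0. The summed level of the fibroblast and mural list, which holds Prelp and Cd248, was 11198 to 11718 TPM in Ctrl, 10272 to 10805 TPM in Cu-Cys and 2819 to 3636 TPM in Cadict, and its part in the results was not tested. Most of the sum in Ctrl was S100a4, at 7439 to 8094 TPM, and Vim. Of the 14 genes of the list that were tested, 7 were called lower and 2 higher with Cadict than in Ctrl. Over all tested genes 27.1% were called lower and 20.7% higher.

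Promoter sequences are shown for the interferon class. The members were sorted by known role after their values had been seen, and 24 of them encode interferon-response, antiviral or antigen-presentation proteins. RefSeq promoters of build GRCm38.p6, running from 250 bases before to 50 after the gene start, were found for 20 of the 24 (83.3%). The interferon-stimulated response element, the site bound by interferon regulatory factors and by the complex that type I interferon activates, was searched for on both strands as GAAANNGAAA. It was present in 13 of the 20 promoters (65.0%), beside 2.88% of the promoters of tested genes with a Ctrl mean of at least 50 and 3.49% of all 27025 promoters of that table. As the class was formed by known interferon role, a high share of this element in it was largely set by that choice. Over all members with a promoter the share was 14 of 102 (13.7%), with 9930111J21Rik1 the holder outside the class. A match is a description of letters in that window and does not show that a factor binds there.

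The 13 matches follow, each with up to 10 flanking bases on either side, read 5′ to 3′ on the strand of the match, with the match in capitals and the coordinates in build GRCm38.p6. For Apol9a and Trim21, which held overlapping matches, 1 is shown.
Gbp2 (chr3:142620594-142620623): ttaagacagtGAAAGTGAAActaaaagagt
Gbp7 (chr3:142530273-142530302): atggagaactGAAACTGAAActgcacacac
Irgm2 (chr11:58214903-58214932): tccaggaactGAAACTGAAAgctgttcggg
Trim12c (chr7:104353359-104353388): agctggaaatGAAACAGAAAccacaactct
Trim30a (chr7:104465210-104465239): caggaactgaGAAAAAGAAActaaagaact
Trim30d (chr7:104507871-104507900): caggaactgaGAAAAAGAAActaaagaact
Phf11b (chr14:59341361-59341390): cacatttagaGAAAAAGAAActagaaacta
Tmem140 (chr6:34863073-34863102): gttaaaaaacGAAAGTGAAAtcagctgaga
Apol9a (chr15:77411114-77411143): tcccaactggGAAATGGAAActgaaagtct
Cxcl10 (chr5:92349083-92349112): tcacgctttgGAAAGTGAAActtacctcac
Ddx58 (chr4:40239804-40239833): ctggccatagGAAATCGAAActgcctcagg
Ifih1 (chr2:62646206-62646233): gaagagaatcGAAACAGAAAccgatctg
Trim21 (chr7:102565444-102565473): agaggaaactGAAAGTGAAAtttggactgc

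Of these matches, 10 lay before the gene start, 9 of them within 150 bases of it, and those of Ddx58, Ifih1 and Trim21 lay after it. The neighbouring paralogs Trim30a and Trim30d carried the same 30 bases. Of the 13 genes with a match, 11 were called lower with Cadict than in Ctrl, with a median log2 fold change of -2.52, and of the 7 without a match 5 were, with a median of -2.10. Of all members 74.3% were called lower, and of all tested genes 27.1%. Cxcl10, a chemokine that interferon and NF-kappa-B both induce, was the member with a match whose mean was above Ctrl with Cadict, at a log2 fold change of 0.58 that became -0.37 with library totals, -0.68 with TPM and -0.35 with FPKM. Its 250 bases before the start (chr5:92348890-92349139, minus strand, written along the gene) hold that match and a pair of matches to the kappa-B consensus, all in capitals, and none of them overlapped.
Cxcl10: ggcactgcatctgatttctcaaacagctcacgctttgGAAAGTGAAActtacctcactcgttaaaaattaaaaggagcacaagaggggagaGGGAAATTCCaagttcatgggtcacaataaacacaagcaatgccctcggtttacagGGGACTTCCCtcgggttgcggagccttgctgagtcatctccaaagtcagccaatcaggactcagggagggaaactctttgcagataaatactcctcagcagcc
The kappa-B consensus was present in 4.35% of all 27025 promoters, and besides Cxcl10 the promoters of 7 members held it, those of Acacb, Arhgef19, Cxcl1, Cyp26b1, Des, Naip5 and Tnfaip3. Across all 140 members 102 had a promoter in the table (72.9%), too few for a check of base composition, which was void. The motif shares of the members likewise cover those 102 only.

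Of the 24 members of the interferon class, 20 (83.3%) were called lower with Cadict than in Ctrl and 4 were not called. All members gave 74.3% and all tested genes 27.1%, and differences between classes were not tested. The median log2 fold change of the class was -2.27. Cxcl10 was the member above 0 at 0.58, and it turned to -0.37 with library totals. Against Cu-Cys, 12 were called lower and 2 higher. The cytosolic RNA sensors were among them. Ddx58, which encodes the sensor RIG-I, had 398, 378 and 351 normalised counts in Ctrl, 132, 135 and 136 in Cu-Cys and 35.0, 43.7 and 59.7 in Cadict. The groups did not overlap, and the log2 fold change with Cadict against Ctrl was -3.11 ± 0.13 (SE, adjusted p = 3.6e-12). Ifih1, the related sensor MDA5, was at 47.7% of Ctrl with Cu-Cys and at 11.8% with Cadict. Dhx58, the regulatory member of the same helicase family, was among the 12 members with the lowest Cu-Cys ratio and had 66.4, 80.3 and 77.3 normalised counts in Ctrl, 12.4, 20.5 and 26.0 in Cu-Cys and 14.3, 14.6 and 14.1 in Cadict. Its Cu-Cys and Cadict libraries overlapped (log2 fold change -0.51 ± 0.33, adjusted p = 0.161), so no further fall of Dhx58 beyond Cu-Cys was called.

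Among the interferon-inducible GTPases, Irgm2 and Gbp7 kept few reads with Cadict, while Gbp2 was at 24.2% of Ctrl. Irgm2 had 88.3, 87.1 and 83.4 normalised counts in Ctrl, 29.7, 31.9 and 18.7 in Cu-Cys and 1.59, 0 and 3.14 in Cadict. In reads, its 3 Cadict libraries held 3 counts in all against 341 in Ctrl, a level of 1.73% of Ctrl with an exact 95% interval of 0.355% to 5.10%. Gbp7, a guanylate-binding protein, held 4 counts in Cadict against 277 in Ctrl (2.84%, 0.769% to 7.36%), and its Cu-Cys mean of 17.4 ± 1.62 stood between. These intervals cover counting error only. Gbp2 had means of 83.2 ± 4.80, 33.5 ± 2.63 and 20.1 ± 7.26 in Ctrl, Cu-Cys and Cadict, and its step from Cu-Cys to Cadict was not called (log2 fold change -0.79 ± 0.25).

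Parp14, an ADP-ribosyltransferase that interferon induces, had 358, 348 and 347 normalised counts in Ctrl, 162, 160.4 and 152 in Cu-Cys and 11.1, 22.7 and 15.7 in Cadict. It was at 45.0% of Ctrl with Cu-Cys and fell to 4.70% of Ctrl with Cadict (log2 fold change -4.50 ± 0.15, adjusted p = 2.0e-13). Trim21, a cytosolic antibody receptor, was at 52.4% of Ctrl with Cu-Cys and at 5.03% with Cadict. Tap2, a subunit of the transporter that carries peptides to MHC class I, moved differently, with 583, 545 and 503 normalised counts in Ctrl, 260.5, 253 and 274 in Cu-Cys and 258, 230.0 and 219.9 in Cadict. Its Cadict and Cu-Cys libraries overlapped, and the step from Cu-Cys was not called (log2 fold change -0.22 ± 0.09), while against Ctrl it was called lower (-1.30 ± 0.09). Psmb9, an immunoproteasome subunit encoded near Tap2, had 55.1 ± 5.18 normalised counts in Ctrl, 17.7 ± 2.20 in Cu-Cys and 39.8 ± 5.85 in Cadict. It was not called against Ctrl, though it was called lower with library totals (-1.51), TPM (-1.62) and FPKM (-1.25), and was called higher than in Cu-Cys (1.10 ± 0.23, adjusted p = 3.2e-04), a value of -0.02 on the TPM scale, and its exons overlap those of Tap1 on the opposite strand. Tmem140, also overlapped by a gene on the other strand, was called lower than in Ctrl with Cadict at -1.23 ± 0.24, and 1 library decided that call, as the adjusted p was 0.0011 without Ctrl replicate 3 and 0.0012 without Cadict replicate 1.

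A list of 42 genes of MHC class I presentation and interferon response, 39 of them tested, held 6 members. Cadict lowered 17 and raised 3 of the 39 against Ctrl, with a median of -0.74. Of all tested genes, 27.1% were called lower and 20.7% higher.

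Chemokines, acute-phase proteins and other genes linked to NF-kappa-B were 15 of the members. With Cadict against Ctrl, 10 (66.7%) were called lower, Lcn2 was called higher and 4 were not called. Of all members 74.3% were called lower, and of all tested genes 27.1% were called lower and 20.7% higher. Ccl2, the chemokine that draws monocytes and by far the most abundant member per length, had 6436, 6989 and 6755 normalised counts in Ctrl, 2733, 2986 and 2959.9 in Cu-Cys and 1189.8, 1429 and 1178 in Cadict. The groups were separate at each step, with log2 fold changes of -2.50 ± 0.07 against Ctrl and -1.26 ± 0.07 against Cu-Cys. Its neighbour Ccl7, a chemokine for the same cells, stepped down alike, with 576 to 625 normalised counts in Ctrl, 277 to 306 in Cu-Cys and 109.8 to 136 in Cadict. Cxcl1, the neutrophil chemokine, did not, with 723, 794 and 773 in Ctrl, 256, 293 and 273 in Cu-Cys and 422, 525 and 349 in Cadict. All its Cadict libraries lay above all Cu-Cys libraries and below all Ctrl libraries, and neither difference was called (-0.92 ± 0.10 and 0.59 ± 0.12). The first of these was called at -1.09 without Cadict replicate 2, at -1.87 with library totals, at -2.23 with TPM and at -1.87 with FPKM.

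Nod1 and Nod2 encode cytosolic sensors of bacterial peptidoglycan. Nod1 had 146, 143 and 146 normalised counts in Ctrl, 76.7, 76.9 and 73.8 in Cu-Cys and 6.36, 4.86 and 6.28 in Cadict, so its Cadict level was 4.02% of Ctrl (log2 fold change -4.70 ± 0.20). Nod2 was called lower as well, at -3.07. C1rl, a protease related to complement C1r, held 4 counts in Cadict against 443 in Ctrl (1.78%, exact 95% interval 0.482% to 4.58%). Nos2, the inducible nitric oxide synthase, had means of 172 ± 4.12, 51.3 ± 9.32 and 24.9 ± 14.2, with a Cadict replicate at 41.4 that overlapped the Cu-Cys libraries. Its step from Cu-Cys to Cadict was not called with all libraries (-1.10 ± 0.27, adjusted p = 0.00156) and was called at -1.67 without Cadict replicate 1 and at -1.25 without Cu-Cys replicate 3. Lbp, the lipopolysaccharide-binding protein, was at 24.0% of Ctrl with Cu-Cys and at 38.1% with Cadict. Serpinb1a, an inhibitor of neutrophil proteases, was at 28.4% and 18.6%.

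C3, the central complement component, and Tnfaip3, the ubiquitin-editing inhibitor of NF-kappa-B, stood near Ctrl with Cadict on normalised counts, but Tnfaip3 was called lower than in Ctrl with library totals (-1.19) and TPM (-1.23). C3 had 2619.9, 2542 and 2545 normalised counts in Ctrl, 1185, 1143 and 1194 in Cu-Cys and 2895, 2643 and 3003 in Cadict. Against Ctrl its log2 fold change was 0.05 ± 0.05, and against Cu-Cys 1.21 ± 0.05 (adjusted p = 8.1e-12), but with library totals these became -0.90 and 0.33, and with TPM C3 was called lower than in Ctrl (-1.07). Lcn2, an iron-binding acute-phase protein, was the 1 member called higher than in Ctrl. It had 166, 167 and 154 normalised counts in Ctrl, 63.5, 81.9 and 81.9 in Cu-Cys and 512, 607 and 514 in Cadict, with no overlap between groups. Its log2 fold change against Ctrl was 1.65 ± 0.10 (adjusted p = 1.7e-10), and stayed above 0 but was not called with library totals (0.70), TPM (0.31) and FPKM (0.64).

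**Figure D2:**
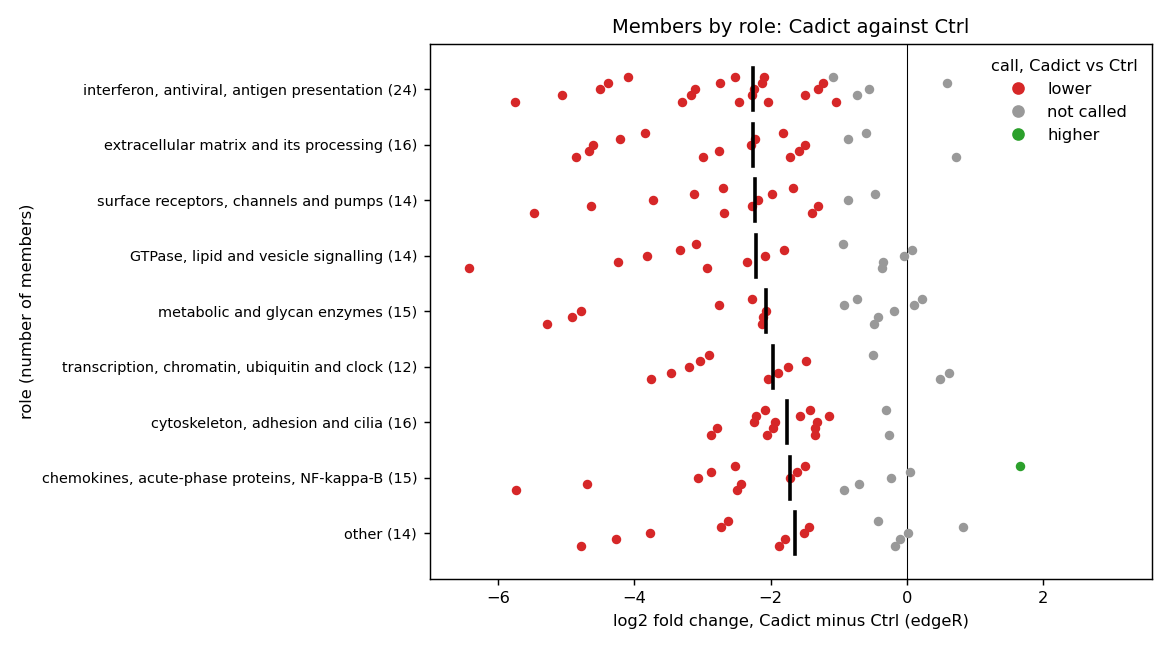
Log2 fold change of Cadict against Ctrl (x axis) for each of the 140 members, grouped by role (y axis, number of members in parentheses) and coloured by call, with a black bar at the median of each role. Medians run from -2.27 in the interferon class to -1.65 among other genes, and Lcn2 at 1.65 is the member called higher.

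Of 16 members sorted under the extracellular matrix and its processing, 13 were called lower with Cadict than in Ctrl, with a median of -2.26, and 8 were called lower than in Cu-Cys. Prelp, a small leucine-rich proteoglycan that anchors basement membranes, had 2793, 2650.4 and 2635 normalised counts in Ctrl, 820.2, 782 and 806 in Cu-Cys and 129, 98.8 and 127 in Cadict. It was at 29.8% of Ctrl with Cu-Cys and at 4.39% with Cadict, and the groups lay far apart at both steps (log2 fold change -4.60 ± 0.08 against Ctrl and -2.82 ± 0.09 against Cu-Cys). C1qtnf1, a secreted protein of the C1q and tumour necrosis factor superfamily, had the lowest Cu-Cys ratio of all members. Its normalised counts were 383, 338 and 384 in Ctrl, 68.4, 61.4 and 69.8 in Cu-Cys and 25.4, 11.3 and 9.42 in Cadict, so that 18.1% of the Ctrl level was left with Cu-Cys and 4.18% with Cadict. Spon2, a spondin, stepped down from 122 ± 9.95 to 29.7 ± 7.87 and 6.92 ± 3.37. Emilin1, an elastin-associated glycoprotein, went from 191 ± 25.4 to 76.6 ± 6.44 and 6.88 ± 2.33 (log2 fold change against Ctrl -4.86 ± 0.24).

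Enzymes and partners of matrix assembly moved less. Loxl1, a lysyl oxidase of elastic fibres, had 468, 419 and 443 normalised counts in Ctrl, 214, 192 and 204 in Cu-Cys and 143, 138 and 152 in Cadict. Its Cadict libraries lay below all others, and the step from Cu-Cys was not called (-0.56 ± 0.10). Htra3, a secreted serine protease, had a like step that was not called (-0.64 ± 0.10). Adamtsl4, a fibrillin-binding protein, went from 1175 ± 71.8 to 620.1 ± 37.2 and 255 ± 15.6 and was called lower at each comparison with Cadict. Adamts2, the procollagen N-proteinase, was at 52.8% of Ctrl with Cu-Cys and at 70.2% with Cadict, not called against either, but was called lower than in Ctrl with library totals (-1.56), TPM (-1.45) and FPKM (-1.07). Tnr, the glycoprotein tenascin-R, had 58.9, 32.4 and 70.7 normalised counts in Cadict, which overlapped its 62.6, 68.8 and 58.4 in Cu-Cys. Mmp9, a gelatinase, was the matrix member above Ctrl with Cadict, with 118, 84.1 and 94.1 in Ctrl, 42.9, 36.8 and 38.1 in Cu-Cys and 178, 181 and 160.2 in Cadict. It was called against Cu-Cys (2.07 ± 0.16) and not against Ctrl (0.72 ± 0.13), where its sign turned with library totals (-0.24), TPM (-0.44) and FPKM (-0.16).

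The wider lists put these genes in context, and beside them stand 27.1% of all tested genes called lower with Cadict and 20.7% called higher. Among 54 tested matrix-processing enzymes and inhibitors, 8 were members, and with Cadict 17 were called lower and 12 higher than in Ctrl. Among 44 tested matrix glycoproteins, 2 were members, and 9 were called lower and 16 higher with Cadict. Of 9 tested small leucine-rich proteoglycans Prelp was the member, and Cadict lowered 3. The 7 genes left out by symbol included 5 that were called lower with Cadict than in Ctrl.

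**Figure D3:**
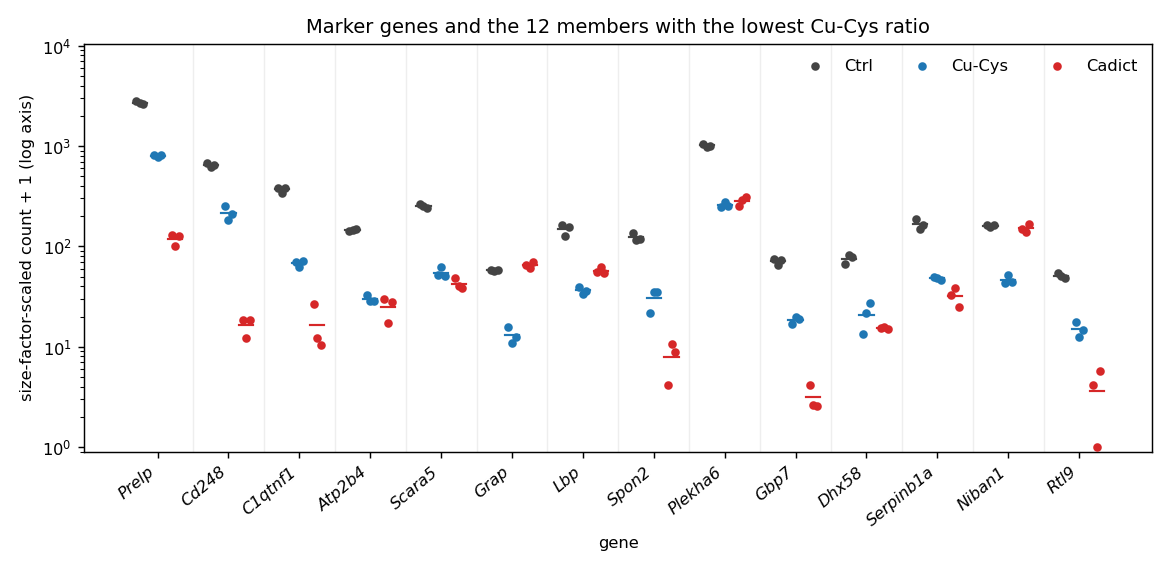
Normalised counts plus 1 (log axis) in each of the 3 Ctrl (grey), Cu-Cys (blue) and Cadict (red) libraries for Prelp, Cd248 and the 12 members with the lowest Cu-Cys ratio, which include Plekha6; bars are group means. Cadict libraries lie at 98.8 to 129 for Prelp and at 11.3 to 17.5 for Cd248, while those of Grap and Niban1 lie near Ctrl on this scale but below it with library totals (-0.87 and -1.12 on the log2 scale).

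Surface receptors, channels and pumps were 14 members. With Cadict 12 (85.7%) were called lower than in Ctrl, beside 74.3% of all members and 27.1% of all tested genes. The median of these 14 was -2.24. Cd248, the pericyte and stromal sialomucin endosialin, had 669.9, 616 and 646 normalised counts in Ctrl, 252, 181 and 210.1 in Cu-Cys and 17.5, 11.3 and 17.3 in Cadict. It was at 33.3% of Ctrl with Cu-Cys and at 2.39% with Cadict (log2 fold change -5.47 ± 0.18 against Ctrl and -3.85 ± 0.21 against Cu-Cys). Erbb3, a receptor of the epidermal growth factor receptor family that binds neuregulins, had means of 296 ± 36.9, 136 ± 16.2 and 36.0 ± 13.2. It was the member among 27 tested receptor tyrosine kinases. Cadict lowered 11 of these and raised 5, beside 27.1% and 20.7% of all tested genes. For some receptors the level with Cadict was close to that with Cu-Cys. Scara5, a scavenger receptor for ferritin, had 263, 252 and 242 in Ctrl, 50.3, 60.6 and 49.5 in Cu-Cys and 47.7, 38.9 and 37.7 in Cadict. Atp2b4, a plasma membrane calcium pump encoded near Prelp, had 140.3, 145 and 147 in Ctrl, 32.1, 27.8 and 27.6 in Cu-Cys and 28.6, 16.2 and 26.7 in Cadict. Cadict libraries overlapped those of Cu-Cys for Atp2b4 and lay just below them for Scara5. Neither was called between Cadict and Cu-Cys (-0.43 ± 0.17 for Scara5 and -0.35 ± 0.23 for Atp2b4), and both were called lower than in Ctrl. Stab1, an endocytic scavenger receptor, and Heg1, a mucin-like receptor of cell junctions, were also not called against Cu-Cys, at -0.30 ± 0.22 and -0.37 ± 0.07.

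Genes of the cytoskeleton, adhesion and cilia were 16 members. With Cadict 14 (87.5%) were called lower than in Ctrl, with a median of -1.75, and Kif21b and Eppk1 were the 2 (12.5%) called lower than in Cu-Cys. Of all members 74.3% and 36.4% were called lower in these comparisons, and of all tested genes 27.1% and 23.6%. Kif21b was not called without Cadict replicate 1 (-1.38), and Eppk1 was not called without any of Cu-Cys replicates 2 and 3 and the 3 Cadict replicates (-1.56 to -1.39). Plekha6, a pleckstrin homology protein of epithelial junctions, had 1053, 976 and 1004 normalised counts in Ctrl, 247, 277 and 252 in Cu-Cys and 251, 288 and 306 in Cadict. Its Cu-Cys and Cadict libraries overlapped, with a difference of 0.06 ± 0.09 (adjusted p = 0.537), while Cadict against Ctrl gave -1.94 ± 0.08. Shroom3, which takes part in apical constriction, was at 51.6% of Ctrl with Cu-Cys and at 39.4% with Cadict. Palld, the actin-bundling protein palladin, had 225, 238 and 228 in Ctrl, 95.6, 94.1 and 95.7 in Cu-Cys and 208, 175 and 209 in Cadict. It was not called against Ctrl (-0.31 ± 0.09), though it was called lower with library totals (-1.27) and TPM (-1.30), and it stood just short of a call against Cu-Cys (0.99 ± 0.10), which it passed at 1.06 without Cadict replicate 2. In the list of 39 tested actin- and microtubule-linking proteins, Cadict lowered 12 and raised 12, and in the Plekh family of 27 it lowered 12 and raised 2. Over all tested genes it lowered 27.1% and raised 20.7%.

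Regulators of small GTPases, lipids and vesicles were 14 members with a median of -2.22. With Cadict 9 (64.3%) were called lower than in Ctrl, beside 74.3% of all members and 27.1% of all tested genes. Rapgefl1, related to exchange factors for Rap GTPases, had the lowest fold change of all members with Cadict, with 1 count in its 3 Cadict libraries against 207 in Ctrl, a level of 0.950% (exact 95% interval 0.0239% to 5.35%). Arhgef19, a guanine nucleotide exchange factor, had 361, 358 and 358 normalised counts in Ctrl, 185, 163 and 182 in Cu-Cys and 20.7, 22.7 and 17.3 in Cadict (log2 fold change against Ctrl -4.24 ± 0.14). Arhgef6, an exchange factor for Rac, had 66.8, 42.1 and 55.0 with Cadict beside 67.1, 65.9 and 63.5 in Ctrl, not called on this scale and called lower with library totals (-1.30). Grap, an adaptor of the Grb2 family, had 57.3, 56.0 and 57.4 in Ctrl, 14.8, 9.82 and 11.4 in Cu-Cys and 63.6, 59.9 and 69.1 in Cadict. It was among the lowest members with Cu-Cys, and its log2 fold change with Cadict was 0.08 ± 0.16 against Ctrl (-0.87 with library totals, -0.96 with TPM and -0.62 with FPKM) and 2.34 ± 0.21 against Cu-Cys. Dgka, a diacylglycerol kinase, fell to 12.4% of Ctrl.

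Metabolic and glycan enzymes were 15 members. With Cadict 8 (53.3%) were called lower than in Ctrl, beside 74.3% of all members and 27.1% of all tested genes. Galnt15, an enzyme that starts O-linked glycans, had 1086, 1046 and 1068 normalised counts in Ctrl, 469, 476 and 511 in Cu-Cys and 17.8 to 47.7 in Cadict, where its mean was 2.74% of Ctrl (log2 fold change -5.28 ± 0.15). Arsi, a sulfatase, had 91.3, 68.2 and 76.5 in Ctrl and 6.36, 1.62 and 0 in Cadict. Cyp26b1, which degrades retinoic acid, and Cbr2, a carbonyl reductase, were near or above Ctrl with Cadict, with log2 fold changes of 0.10 ± 0.09 and 0.22 ± 0.10 that became -1.09 and -1.10, both called lower, on the TPM scale.

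Transcription, chromatin, ubiquitin and clock genes were 12 members, with 9 called lower and a median of -1.97. Etv1, an ETS factor, had 356, 319 and 357 normalised counts in Ctrl, 174, 197 and 167 in Cu-Cys and 30.2, 21.1 and 29.8 in Cadict (log2 fold change -3.75 ± 0.15 against Ctrl). Vdr, the vitamin D receptor, had 707, 735 and 731 in Ctrl, 321, 304 and 312 in Cu-Cys and 555, 544 and 537 in Cadict, between the other groups and called against neither (-0.50 ± 0.06 and 0.74 ± 0.06). The difference of Vdr from Ctrl was called with library totals (-1.46), TPM (-1.66) and FPKM (-1.29). Chd5, a chromatin remodeller, and Usp11, a deubiquitinase, lay above Ctrl with Cadict in all libraries on normalised counts, while with library totals, TPM and FPKM Usp11 stood below Ctrl at -0.47, -0.71 and -0.39. Chd5 had 243, 241 and 233 in Ctrl, 108, 112 and 109.5 in Cu-Cys and 401, 381 and 394 in Cadict, and the difference from Ctrl was 0.62 ± 0.07, short of the fold limit, and -0.33 with library totals, -0.49 with TPM and -0.21 with FPKM. Of 43 tested chromatin regulators, Cadict lowered 11 and raised 1, beside 27.1% and 20.7% of all tested genes.

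Among the 14 remaining members, 9 (64.3%) were called lower than in Ctrl with Cadict, beside 74.3% of all members and 27.1% of all tested genes. Fam43a had 768, 753 and 713 normalised counts in Ctrl, 401, 377 and 366 in Cu-Cys and 39.8, 27.5 and 18.8 in Cadict. Rtl9, derived from a retrotransposon, held 5 counts in Cadict against 198 in Ctrl (4.97%, exact 95% interval 1.60% to 11.8%). Txnip, the thioredoxin-interacting protein that glucose induces, had 192, 154 and 179.8 in Ctrl, 90.7, 93.3 and 86.8 in Cu-Cys and 369, 267 and 352 in Cadict. It was called against Cu-Cys (1.80 ± 0.13) and not against Ctrl (0.82 ± 0.11, and -0.14 with library totals, -0.43 with TPM and -0.13 with FPKM). Niban1, a stress-induced protein, was at 28.5% of Ctrl with Cu-Cys and at 94.9% with Cadict, and it was called lower than in Ctrl with library totals (-1.12) and TPM (-1.08). Slurp1, a secreted ligand of nicotinic receptors, was at 51.9% and 108%, and was called lower than in Ctrl with TPM (-1.39) and FPKM (-1.04). Of the members named Tmem, Tmem71 and Tmem220 were called lower than in Ctrl, while Tmem44 was at 99.8% and was called lower with library totals (-1.05).

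The step from Cu-Cys to Cadict divided the members. This comparison shares the Cu-Cys libraries, which were chosen low, with the rule. Cadict was called lower than Cu-Cys in 51 members (36.4%, beside 23.6% of all tested genes and 25.1% of those with a Ctrl mean of at least 50) and higher in 14 (beside 18.6% of tested genes), with 75 not called and a median of -0.73. All 51 were also called lower than Ctrl, 53 more were called lower than Ctrl without a call against Cu-Cys, and 22 were called in neither comparison. Of the 14 called higher than Cu-Cys, Lcn2 was also called higher than Ctrl and the other 13 were not called against Ctrl. These 14 were C3, Cbr2, Chd5, Cxcl10, Cyp26b1, Grap, Lcn2, Mmp9, Niban1, Psmb9, Tmem44, Tnfaip3, Txnip and Usp11. The split of 51 lower and 14 higher became 96 and 3 with library totals, 55 and 1 on the TPM scale and 37 and 1 on the FPKM scale, with Lcn2 the member called higher on each, beside Grap and Mmp9 with library totals. The median of all tested genes against Cu-Cys was -0.10 in the main fit. It was -0.98 with library totals, -0.96 on TPM and -0.68 on FPKM, and the shares of all tested genes called on these scales were not counted.

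**Figure D4:**
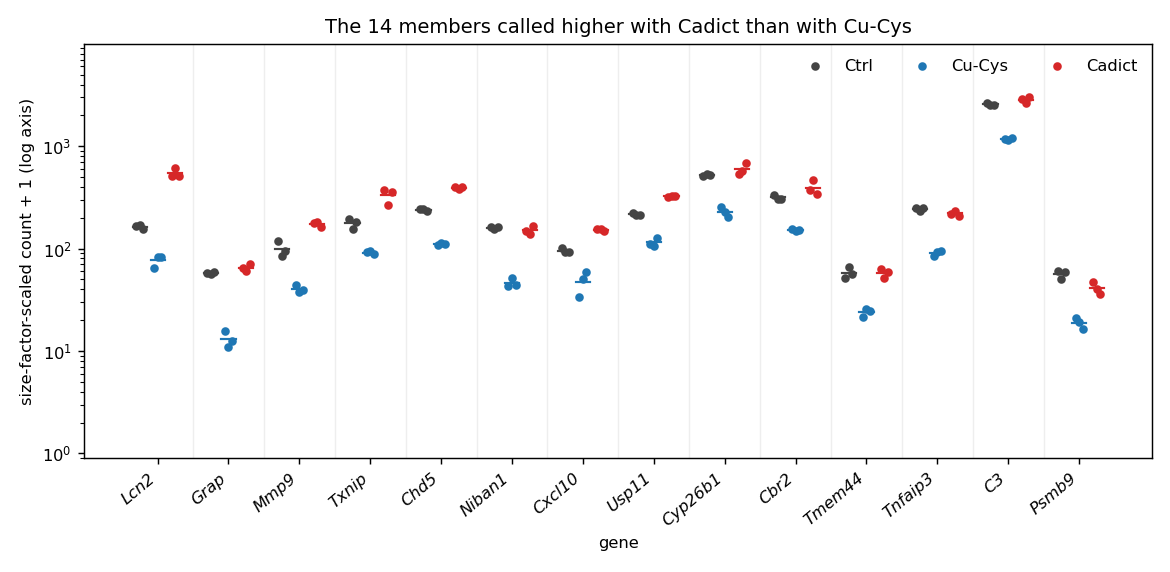
Normalised counts plus 1 (log axis) in each of the 3 Ctrl (grey), Cu-Cys (blue) and Cadict (red) libraries for the 14 members called higher with Cadict than with Cu-Cys, ordered by that fold change; bars are group means. Lcn2 lies at 512 to 607 in Cadict and 154 to 167 in Ctrl, and C3, Tmem44 and Niban1 lie close to Ctrl on this scale but below it with library totals (-0.90, -1.05 and -1.12 on the log2 scale).

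Other properties of the members were described without a test. Their median effective length, worked out from counts and FPKM in Ctrl, was 2843 bases over 125 members, and that of the tested genes with a Ctrl mean of at least 50 was 2646 bases over 10269. In the RefSeq order of protein-coding genes (GRCm38.p6), 21 members lay within 5 places of another, in 12 pairs, among them Ccl2 and Ccl7, Gbp2 and Gbp7, Psmb9 and Tap2, Prelp and Atp2b4, and Fam43a and Tmem44. Counts are uncertain where transcripts share sequence. In 10 members over 10% of the stretches of 50 bases also occur in another gene, led by 9930111J21Rik1 (82.9%), Phf11b (47.0%), Naip5 (36.8%), Sp110 (36.0%) and Medag (34.8%). In 21 members the exons overlap those of another coding gene.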

How the data were processed

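Total RNA of MC38 cells was sequenced in 9 libraries, 3 each of Ctrl, Cu-Cys and Cadict. The authors deposited, for each gene and library, an expected count (estimated per gene and not normalised), TPM, FPKM and a further signal value, which in the libraries checked was the count rounded up and divided by a size factor of 1.31 to 1.33 in Ctrl, 1.21 to 1.23 in Cu-Cys and 0.617 to 0.637 in Cadict. The submitters' processing notes name HISAT2 2.1.0, Bowtie2 2.3.4.3, RSEM 1.3.1 and the builds GRCm39 and GRCh38.p13 without their roles. Strandedness is not given in the sources used here. Deposited columns labelled CC were taken as Cu-Cys and CCGE as Cadict, the latter inferred from its components. Deposited group averages were not used.

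Members were found on the deposited signal values, called normalised counts. The members and gene lists were chosen with earlier results of these data known, and the roles were assigned after the values were seen. Expected counts were rounded and fitted in edgeR 4.0.16 (R 4.3.3; filterByExpr, TMM, quasi-likelihood test, 3 groups in a single fit), and p-values were adjusted by Benjamini-Hochberg over 11949 genes. Calls took the study's own limits, a 2-fold change and an adjusted p no larger than 0.001. On simulated counts for Cadict against Ctrl (11772 genes tested), the step recovered 199 of 200 changed genes with 1 false call. In the data far more genes were called with Cadict (27.1% lower and 20.7% higher), so that run does not test the scaling. A gene was named when it was a marker of the group (Prelp, Cd248, Plekha6), among the 12 lowest Cu-Cys ratios, among the 8 highest or 8 lowest with Cadict, among the 4 most abundant members of a list, or among the 3 on either side of the cutoff, and 1 gene so named is not reported here by itself. Other genes were named after their values were seen. The alternatives were other scalings, filters, cutoffs, pseudocounts, DESeq2 1.42.0, limma 3.58.1, a replicate block and leaving out each library. A count of 0 allows up to 3 counts, or 0.164 to 0.168 CPM. Ratios of low counts carry exact 95% intervals.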

Additional observations from a re-analysis of the deposited data

How the results depend on the processing

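The number of members was 277 on TPM, 211 on FPKM and 232 with a Ctrl mean of at least 20, beside 140, and 141 to 155 without 1 library. All 140 were kept at the lower Ctrl limit, 139 on either scale and at least 130 without a library. Members called lower than Ctrl with Cadict were 65 when 10 counts were required in every library, where 99 members were tested, and 102 to 108 without 1 library, beside 104. Members called higher than Ctrl were 0 with library totals (edgeR), TPM or FPKM (limma), each with 1 at an unadjusted p under 0.05, 1 in the other fits including DESeq2, 1 whichever library was left out, and 6 where only an adjusted p no larger than 0.05 was asked. Against Cu-Cys, 51 lower became 96 with library totals, 24 with 10 counts required and 84 at that looser limit, and ran from 45 to 51 without 1 library. The 14 higher became 3 with library totals, 1 on TPM, 1 on FPKM and 30 at the same looser limit, and ran from 13 to 16 without 1 library. A stricter or looser limit changes these counts by its own construction, and for the other scales the cause was not tested. Shares of all tested genes called were not counted on those scales.

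Sign turned together with a call on TPM for Cyp26b1 (-1.09), Cbr2 (-1.10), C3 (-1.07) and Slurp1 (-1.39, and -1.04 on FPKM) against Ctrl and for Psmb9 (-0.02) against Cu-Cys. Against Ctrl, Apol9a was not called without Ctrl replicate 1 (-0.97) or Cadict replicate 3 (-0.99) and was short of the fold limit without Cadict replicate 1, and Phf11b was called without Ctrl replicate 3 (-1.23) or Cadict replicate 2 (-1.37). Single libraries also decided calls against Cu-Cys. Psmb9 was not called without Cu-Cys replicate 2 (1.10) or 3 (1.00) or Cadict replicate 1 (0.98), Rtl9 without any library but Cu-Cys replicate 2 and Cadict replicate 3 (-2.55 to -1.85), Trim30a without Cadict replicate 1 (-0.95), Trim30d without any library but Ctrl replicates 1 and 2 and Cu-Cys replicate 2 (-1.47 to -1.32), and Scn2a without Ctrl replicate 3, Cu-Cys replicate 1 or 3, or Cadict replicate 1 or 2 (-1.34 to -1.14). Slurp1 was called higher without Cu-Cys replicate 2 (1.07) or Cadict replicate 1 (1.04) or 3 (1.12).

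With the replicate number as a block, 105 members were called lower and 1 higher than Ctrl and 51 lower and 14 higher than Cu-Cys, and of the named genes the call of Phf11b against Ctrl changed (-1.08, called lower). Residuals of same-numbered libraries correlated at -0.192 to 0.152 over 8551 genes, so the numbers were not treated as pairs.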
